A study of Mus musculus with 6 samples.

Results

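The genes described here code for the mitochondrial solute carriers (the Slc25a family), the uncoupling proteins, the pyruvate carrier subunit Mpc1 and the carrier homologues Mtch1 and Mtch2. Members were chosen by symbol alone: every probe set whose only gene symbol on the array starts with Slc25a or is one of the named uncoupling, pyruvate carrier or homologue genes, with the highest-mean probe set for each symbol. The rule found 51 genes, each with a single probe set, of 30176 genes that have a probe set under a single symbol. Ucp2 and Mpc2 had no probe set under their own symbol and are not analysed here. Total RNA came from the peri-infarct left ventricle of male C57BL/6 mice whose left descending coronary artery had been tied off (MI, 3 samples) and from the matching region of hearts that were operated on without ligation (sham, 3 samples). Tissue was taken 4 weeks after surgery, and each sample was hybridized to 1 array. The strain, sex and interval were shared by both groups, the mice carried no engineered allele that the labels name, and no source used here gives their age. Whether the samples of a group were separate animals is not stated, so p-values measure only the spread between these samples.

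The inner mitochondrial membrane is almost closed to charged metabolites. Slc25 proteins carry them across it, exchanging ADP for ATP, bringing in phosphate, acylcarnitines, amino acids, cofactors and iron, and moving reducing equivalents through the malate-aspartate shuttle. Uncoupling proteins belong to the same family. The beating heart depends on these steps, since most of its ATP comes from the oxidation of fatty acids in mitochondria.

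The array values are log2 signals, so a difference of 1 is a doubling or halving of the signal, and every difference below is the MI mean minus the sham mean. The medians over the transcript probe sets ran from 4.34 to 4.35 for sham and from 4.35 to 4.43 for MI. The highest background control probe set read 5.12 to 6.08, and a signal at or below it on an array is called within the background range. Heart muscle markers were present at high signal: Actc1 and Tnnt2, a cardiac actin and a cardiac troponin, read 19.79 to 19.93, at the top of the range of the arrays. Deviations of sham 1 and MI 3 from their group means correlated at 0.50 over 32979 probe sets, a description with no test. Those of sham 1 and MI 2 correlated at -0.51. Deviations in a group of 3 sum to 0, so such values depend on each other and do not single out 2 arrays. Counts of calls are also given without sham 1 and MI 3, with the genes whose call changed.

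Of the 51 genes, 42 passed the filter on low signal, a mean over all arrays of at least 4.36, and the other 9 were not tested. With limma and an adjusted threshold of 0.05, 10 of the 42 were lower in the MI hearts and none was higher. The background was 3.64% of all 32979 probe sets tested called lower and 2.97% called higher. Among 12024 protein-coding genes tested, 6.32% were lower and 4.32% higher, against 23.8% of the carrier genes lower. At an unadjusted p under 0.05, limma gave 18 lower and 2 higher, and the methods' t-test called none after adjustment, with 14 at an unadjusted p under 0.05. Of all 32979 probe sets, 8150 were at an unadjusted p under 0.05 with limma and 7422 with the t-test. The t-test called 272 of them after adjustment. The median difference was -0.25 over the 42 genes and -0.05 over the protein-coding genes. In 19 of the 42, all MI signals were lower than all sham signals, where the background was 16.8% of all probe sets and 26.8% of protein-coding genes. In 2, all MI signals were higher than all sham signals, where the background was 15.0% of all probe sets and 16.2% of protein-coding genes.

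**Figure D1:**
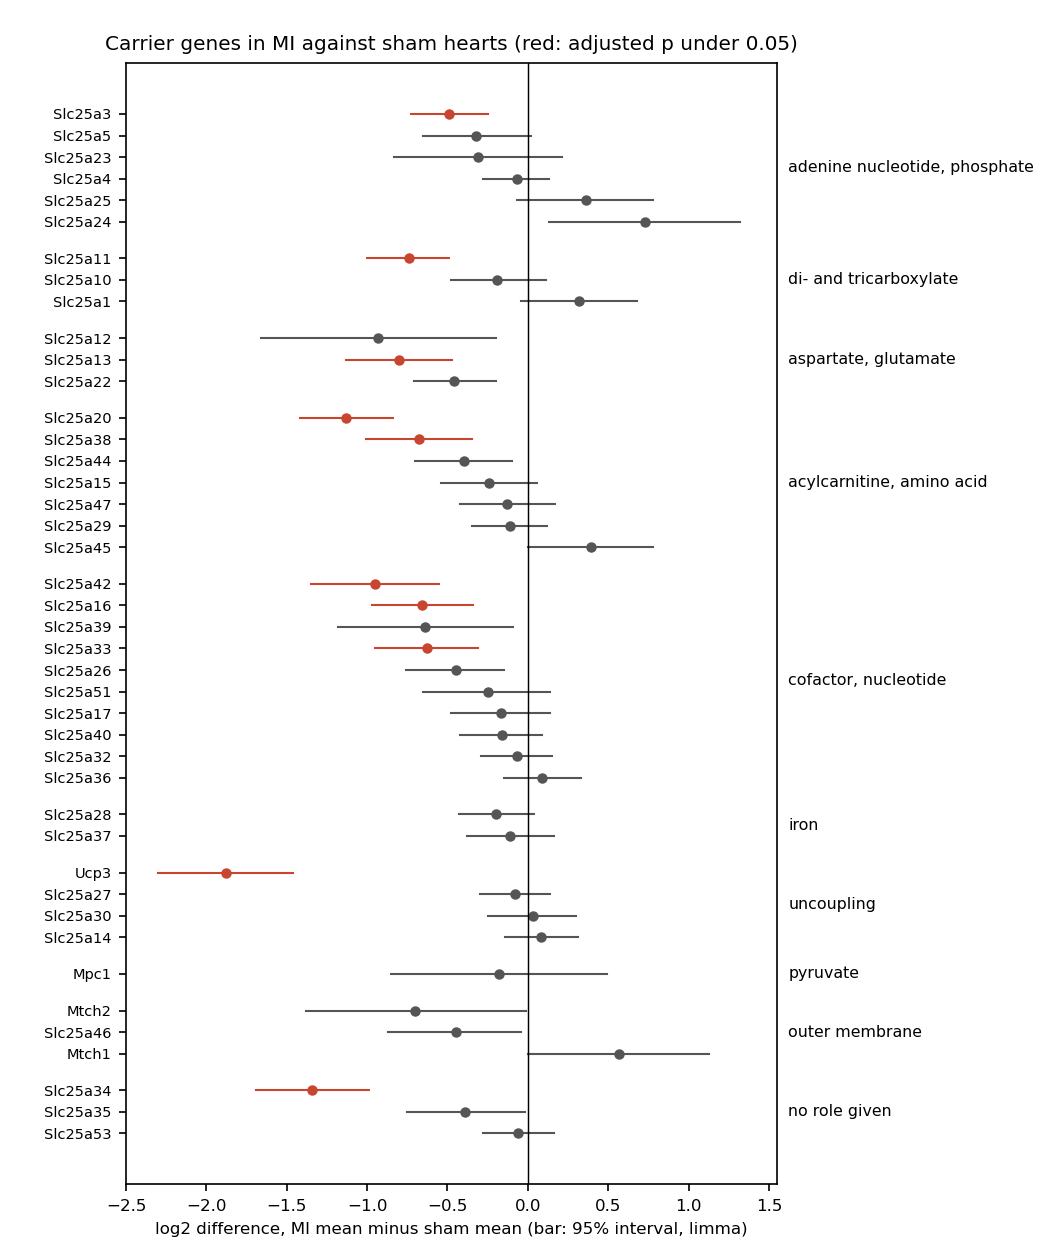
Log2 difference between MI and sham (x axis) for the 42 tested carrier genes, grouped by role, with 95% intervals from limma; 3 arrays a group. The 10 genes in red passed the adjusted threshold and all lie below 0, from -1.88 for Ucp3 to -0.49 for Slc25a3.

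The count of calls rested on single arrays. It was 2 lower, Ucp3 and Slc25a20, without sham 1, and 0 without sham 2, sham 3, MI 1 or MI 2, where limma gave 12, 14, 16 and 18 genes at an unadjusted p under 0.05. Without MI 3 the count of these genes was 13 lower and 5 higher. Calls rose over all probe sets too, to 2430 lower and 2257 higher, against 1200 and 980 with all 6 arrays. The genes added to the lower calls were Slc25a26, Slc25a46 and Slc25a51. Without both sham 1 and MI 3 it was 13 lower and 3 higher, with 2273 of all probe sets lower and 2159 higher. There Slc25a12, Slc25a22, Slc25a39 and Slc25a46 were added to the lower calls and Slc25a16 was lost (adjusted p = 0.0555 from limma).

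The 3 genes that fell by a factor of at least 2 were Ucp3, Slc25a34 and Slc25a20. The bases just before the first base of each gene are shown because these genes carry the largest differences. They are from RefSeq (GRCm38.p6), 5′ to 3′ on the strand of the gene: chr7:100472741-100472990 on the plus strand for Ucp3, chr4:141623892-141624084 on the minus strand for Slc25a34 and chr9:108661886-108662135 on the plus strand for Slc25a20. Capitals mark matches on either strand to the nuclear receptor half-site AGGTCA, the GC box GGGCGG and the CCAAT box CCAAT.
Ucp3: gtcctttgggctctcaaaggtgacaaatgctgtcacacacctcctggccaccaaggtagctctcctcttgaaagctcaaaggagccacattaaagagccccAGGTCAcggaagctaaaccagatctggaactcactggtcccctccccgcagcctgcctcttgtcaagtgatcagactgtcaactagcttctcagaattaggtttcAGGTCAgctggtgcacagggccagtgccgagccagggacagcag
Slc25a34: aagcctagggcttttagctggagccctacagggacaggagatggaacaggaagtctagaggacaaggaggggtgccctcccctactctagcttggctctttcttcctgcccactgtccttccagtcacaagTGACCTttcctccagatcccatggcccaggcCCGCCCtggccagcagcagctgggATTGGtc
Slc25a20: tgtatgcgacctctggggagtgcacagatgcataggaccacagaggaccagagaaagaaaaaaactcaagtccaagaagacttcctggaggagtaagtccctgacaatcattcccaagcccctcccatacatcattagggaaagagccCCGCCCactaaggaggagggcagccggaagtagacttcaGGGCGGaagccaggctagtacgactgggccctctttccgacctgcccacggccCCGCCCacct

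Ucp3 held AGGTCA from 149 to 144 and again from 44 to 39 bases before the gene. Slc25a34 held its reverse complement from 62 to 57 bases before the gene, and Slc25a20 held GC boxes and no AGGTCA in this window. The half-site is the sequence that nuclear receptors such as PPAR and ERR bind in direct repeats or singly, and a match is a description of letters, not of binding. In the 250 bases before a start, AGGTCA was found in 4607 of 32851 RefSeq promoters and in 8 of the 53 promoters of the 41 carrier genes with an entry. The GC box was found in 32.7% of all promoters and in 69.8% of those of the carrier genes, including 6 of the 10 genes called lower. The extended half-site AAGGTCA, which contains AGGTCA, was found in 4.08% of all promoters and in those of Slc25a34 and Mtch2 among the carrier genes. All promoters include those of non-coding genes, and no test was made of these shares.

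Among the uncoupling proteins and their close relatives, Ucp3 was the 1 gene called of 4 tested. Ucp3 is the uncoupling protein of skeletal muscle and heart, and its level follows fatty acid supply. Its signal was 8.16, 7.69 and 7.69 in sham 1 to 3 and 6.17, 5.85 and 5.87 in MI 1 to 3. No MI array came near the sham range. The difference was -1.88 (standard error 0.17, 95% interval -2.30 to -1.46, adjusted p = 0.0119 from limma), a signal 3.68-fold lower in MI. Leaving out any 1 array kept the difference between -1.98 and -1.72. The MI 3 signal was within the background range of its array (highest control 6.08), and that of MI 2 was just above it (5.79). The relatives Slc25a14, Slc25a27 and Slc25a30, whose transport roles are less settled, had differences of 0.08, -0.08 and 0.03, none called. Slc25a14 lay within the background range on every array, so its value says nothing about change. The 95% intervals of Slc25a27 and Slc25a30 were -0.30 to 0.14 and -0.25 to 0.30. Ucp1, the uncoupling protein of brown fat, read 3.26 to 3.50 on all arrays, within the background range, and was not tested.

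Slc25a20, the carnitine-acylcarnitine carrier that brings long-chain fatty acids into the matrix, fell in MI. It read 14.71, 14.91 and 14.84 in sham and 13.54, 13.65 and 13.87 in MI, with every MI array well below every sham array. The difference was -1.13 (standard error 0.12, 95% interval -1.42 to -0.84, adjusted p = 0.0142 from limma), a 2.19-fold lower signal. The other genes of the carnitine shuttle had negative differences as well. Of these 5, 3 were called lower, where the background was 6.32% of protein-coding genes tested. The 3 were Cpt2, the transferase of the inner membrane (-1.37), Crat, carnitine acetyltransferase (-1.11), and Cpt1b, the muscle form of the outer membrane transferase (-0.78). Cpt1a, the liver form, had a difference of -0.59 that was not called (adjusted p = 0.0787 from limma). All 5 were separated from sham on every array, as were 26.8% of protein-coding genes in the same direction.

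Slc25a34 has no transport role that is settled enough to state. Its signal was 9.92, 10.02 and 9.70 in sham and 8.56, 8.34 and 8.73 in MI, with no overlap. The difference was -1.34 (standard error 0.14, adjusted p = 0.0142 from limma), or 2.53-fold lower. Slc25a35, its nearest relative by name, read 7.36, 7.61 and 7.62 in sham and 7.30, 7.25 and 6.88 in MI, and its difference of -0.39 was not called (adjusted p = 0.181 from limma). Slc25a53 differed by -0.06 within the background range. Slc25a43 and Slc25a54 were not tested.

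**Figure D2:**
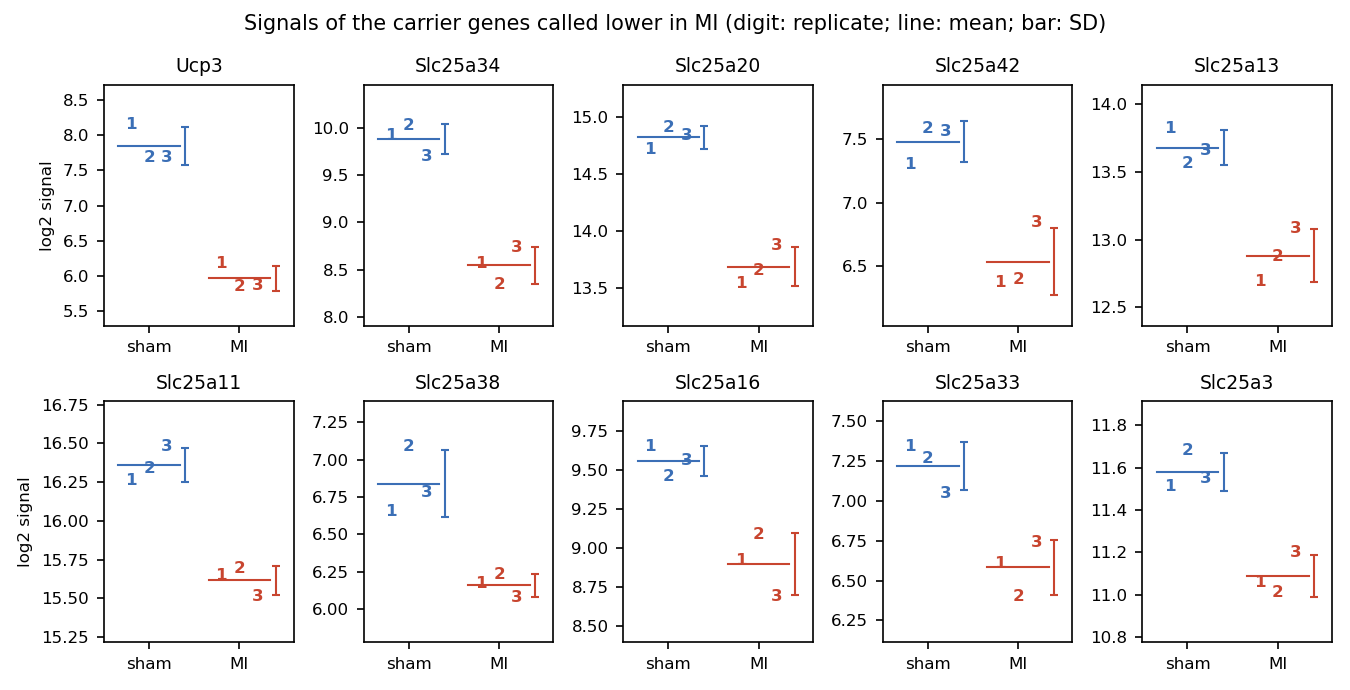
Log2 signal (y axis, a scale of its own in each panel) of the 10 carrier genes called lower in MI, by group. Digits are the replicate numbers, lines the means and bars the SD of 3 arrays. In all 10 panels the 3 MI arrays sit below the 3 sham arrays, and MI 3 is the highest MI array in 6.

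Of the 3 carriers of the malate-aspartate shuttle, Slc25a11 and Slc25a13 were called lower in MI and Slc25a12 was not. The shuttle moves the electrons of cytosolic NADH into mitochondria, with an oxoglutarate-malate carrier and an aspartate-glutamate carrier working in turn. Slc25a11, the oxoglutarate-malate carrier, read 16.26, 16.34 and 16.48 in sham and 15.65, 15.69 and 15.51 in MI. Its difference was -0.74 (standard error 0.10, adjusted p = 0.0214 from limma), 1.67-fold lower. Slc25a13, the aspartate-glutamate carrier citrin, read 13.82, 13.56 and 13.66 in sham and 12.69, 12.88 and 13.08 in MI, a difference of -0.80 (standard error 0.14, adjusted p = 0.0299 from limma). Both were separated from sham on every array.

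Slc25a12, the aspartate-glutamate carrier aralar of heart and brain, read 15.20, 15.69 and 15.74 in sham and 14.70, 15.11 and 14.02 in MI. The groups did not overlap, but MI 3 was far below the other MI arrays, and the difference of -0.93 was not called (standard error 0.30, 95% interval -1.66 to -0.20, adjusted p = 0.125 from limma). Without MI 3 it was -0.63 (adjusted p = 0.12 from limma), and without both sham 1 and MI 3 it was -0.80 and was called (adjusted p = 0.0442 from limma). Of the 4 enzymes of the shuttle, Mdh2, mitochondrial malate dehydrogenase, was called lower (-0.64, adjusted p = 0.0435 from limma). Got1, Got2 and Mdh1 had differences of -0.63, -0.50 and -0.29 and were not called.

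The glutamate carrier Slc25a22 read 5.49, 5.76 and 5.69 in sham and 5.15, 5.25 and 5.17 in MI. The groups did not overlap, the sham signals were all within the background range, and the difference of -0.46 was not called (adjusted p = 0.0564 from limma), but was without both sham 1 and MI 3 (adjusted p = 0.0416 from limma). Slc25a18, the second glutamate carrier, read 3.56, 3.67 and 3.63 in sham and 3.66, 3.75 and 3.66 in MI and was not tested. Among the other carriers of dicarboxylates and tricarboxylates, Slc25a10, the dicarboxylate carrier, had a difference of -0.19, and Slc25a1, the citrate carrier, one of 0.32, neither called. The oxodicarboxylate carrier Slc25a21 read 3.35 to 3.51 and was not tested.

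Of the carriers of adenine nucleotides and phosphate, the phosphate carrier Slc25a3 was the 1 called of 6 tested. It supplies the phosphate from which ATP synthase makes ATP. It read 11.51, 11.68 and 11.55 in sham and 11.06, 11.01 and 11.20 in MI, without overlap, a difference of -0.49 (standard error 0.10, adjusted p = 0.0435 from limma) that was the smallest of the 10 called. With trend and robust options it was no longer called (adjusted p = 0.0568 from limma).

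Slc25a4, the ADP/ATP carrier of heart and muscle, read 17.14, 17.14 and 17.09 in sham and 17.02, 17.12 and 17.02 in MI, and the groups overlapped. Its difference was -0.07 with a 95% interval from -0.28 to 0.13 (adjusted p = 0.623 from limma). Slc25a5, the ADP/ATP carrier of most other tissues, read 16.38, 16.70 and 16.65 in sham and 16.29, 16.42 and 16.07 in MI, a difference of -0.32 that was not called (adjusted p = 0.226 from limma). Signals above 16 are beyond what a 16-bit scan can record, and whether differences there are compressed was not tested. Quantile normalization between arrays moved the difference to -0.35 for Slc25a4, to -0.68 for Slc25a5 and to -1.09 for Slc25a11, and with it Slc25a11 was no longer called (adjusted p = 0.0613 from limma). Slc25a31, the ADP/ATP carrier of the testis, read 3.72 to 4.15 and was not tested.

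The 3 tested carriers that exchange ATP-Mg for phosphate under the control of calcium did not share a direction. Slc25a23 had a difference of -0.31, Slc25a25 one of 0.36 and Slc25a24 one of 0.73, none of them called. Slc25a41, the fourth of this type, read 3.45 to 3.71 and was not tested.

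Carriers of cofactors and nucleotides held 3 of the 10 calls, among 10 genes tested. Slc25a42, which brings coenzyme A into mitochondria, read 7.30, 7.59 and 7.56 in sham and 6.37, 6.39 and 6.84 in MI, a difference of -0.95 (standard error 0.16, adjusted p = 0.0302 from limma). Slc25a16, a carrier linked to coenzyme A as well, read 9.65, 9.46 and 9.56 in sham and 8.92, 9.09 and 8.69 in MI, a difference of -0.66 (adjusted p = 0.0404 from limma). Both were separated on every array, and MI 3 was the highest MI array for Slc25a42 and the lowest for Slc25a16. Slc25a33, a pyrimidine nucleotide carrier, read 7.34, 7.27 and 7.05 in sham and 6.61, 6.40 and 6.74 in MI, a difference of -0.63 (adjusted p = 0.0462 from limma). Its relative Slc25a36 carries pyrimidine nucleotides too and differed by 0.09, not called.

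In this group the glutathione carrier Slc25a39 read 8.28, 8.79 and 8.60 in sham and 8.07, 8.19 and 7.50 in MI. The groups did not overlap, and the difference of -0.64 was not called (adjusted p = 0.149 from limma), though -0.57 was called without both sham 1 and MI 3 (adjusted p = 0.0486 from limma). Slc25a26, the carrier of the methyl donor S-adenosylmethionine, had a difference of -0.45, also without overlap and not called. Without MI 3 it was -0.53 and was called (adjusted p = 0.0490 from limma). The NAD carrier Slc25a51, the peroxisomal cofactor carrier Slc25a17, the glutathione carrier Slc25a40 and the folate carrier Slc25a32 had differences of -0.25 to -0.07, none called. That of Slc25a51 was -0.43 without MI 3 and was called (adjusted p = 0.0338 from limma).

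Amino acid carriers gave 1 call, Slc25a38, which brings in glycine for haem synthesis. It read 6.65, 7.09 and 6.78 in sham and 6.17, 6.23 and 6.08 in MI, a difference of -0.68 (standard error 0.13, adjusted p = 0.0412 from limma) with no overlap. The MI 3 signal was level with the highest background control of that array (6.08). Slc25a44, the carrier of branched-chain amino acids, did not overlap between groups, and its difference of -0.40 was not called (adjusted p = 0.115 from limma). The ornithine carrier Slc25a15 had a difference of -0.24. Slc25a29, a carrier of basic amino acids, and Slc25a47 lay within the background range on every array, and Slc25a2 and Slc25a48 were not tested.

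The mitoferrins Slc25a28 and Slc25a37, which carry iron, had differences of -0.20 and -0.11, and neither was called. Slc25a28 read 7.15, 7.08 and 7.05 in sham and 7.02, 6.85 and 6.82 in MI. Slc25a37, the form of red cell precursors, read 7.06, 7.16 and 7.40 in sham and 7.08, 7.10 and 7.10 in MI. Their 95% intervals ran from -0.43 to 0.04 and from -0.38 to 0.16. Mpc1, a subunit of the pyruvate carrier, read 9.65, 9.57 and 9.63 in sham and 9.33, 8.94 and 10.06 in MI. MI 3 lay above every sham array and the other MI arrays below, and the difference of -0.18 had a 95% interval from -0.85 to 0.49. It became -0.49 without MI 3 and 0.07 without MI 2.

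Genes with a positive difference were few, and none was called with all 6 arrays. The 5 largest were Slc25a24 (0.73), Mtch1 (0.57), Slc25a45 (0.39), Slc25a25 (0.36) and Slc25a1 (0.32). Slc25a24 read 7.76, 8.03 and 8.22 in sham and 8.86, 9.09 and 8.24 in MI, so MI 3 lay just above the highest sham array (adjusted p = 0.137 from limma). Mtch1, a carrier homologue of the outer membrane, read 9.32, 9.65 and 9.68 in sham and 10.40, 10.33 and 9.63 in MI, with MI 3 inside the sham range (adjusted p = 0.202 from limma). In each of the 5, MI 3 was the lowest MI array, and all 5 were called higher by limma without MI 3, with differences of 0.97, 0.81, 0.54, 0.54 and 0.47 in the order above. Leaving out the lowest MI array must raise each difference, so these calls are no separate evidence. That fit called 2257 of all 32979 probe sets higher, against 980 with all 6 arrays. Without both sham 1 and MI 3, Slc25a24, Mtch1 and Slc25a25 were called higher. The sham signals of Slc25a1 and Slc25a25 were within the background range, as were their MI 3 signals of 5.63 and 5.48.

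**Figure D3:**
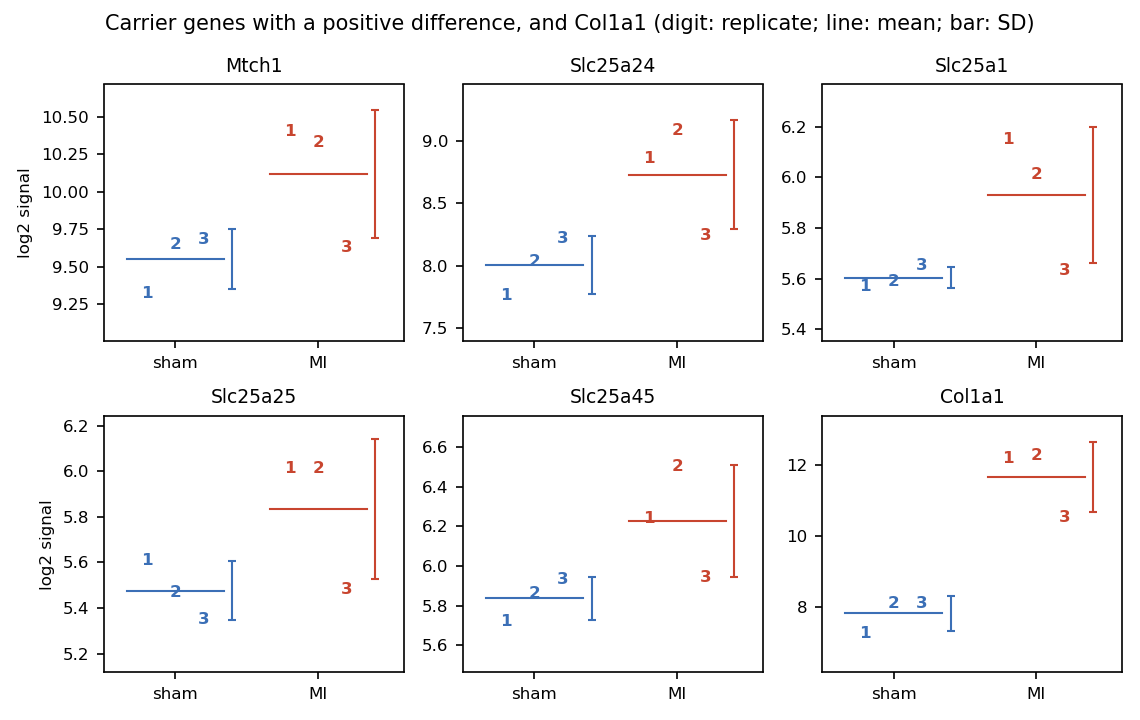
Log2 signal (y axis, a scale of its own in each panel) of the 5 carrier genes with the largest positive differences and of the fibroblast marker Col1a1, by group. Digits are replicate numbers, lines means and bars the SD of 3 arrays. MI 3 is the lowest MI array in every panel, and for Col1a1 it stays above the sham arrays (10.52 against at most 8.10).

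Markers of cell types were read on the same arrays, and the lists did not all follow 1 pattern. Of 7 fibroblast markers tested, 6 were called higher in MI, where the background was 4.32% of protein-coding genes tested. The log2 of the summed signal of the 7 was 16.65 to 16.76 in sham and 18.22 to 18.60 in MI, lowest of the MI arrays in MI 3. Of 10 macrophage markers, 3 were called higher, where the background was 4.32% of protein-coding genes tested. The summed level of the 10 was 12.84 to 13.55 in sham and 15.12, 14.80 and 15.07 in MI 1 to 3. Lyz2 weighs most in that sum and read 14.81, 14.33 and 14.87 there. Fcgr1, Csf1r, C1qa, C1qc, Mrc1, Cd68, C1qb and Adgre1 were lowest of the MI arrays in MI 3. Cd163 had a negative difference, -0.52, that was not called. Of 6 endothelial markers none was called, with a summed level of 15.47 to 15.66 in sham and 15.20 to 15.59 in MI. Kdr and Tie1 among them had differences of -0.54 and -0.51. Of the erythroid and the T and B cell markers, 1 and 2 were tested and none was called. Of 10 cardiomyocyte markers, none was called lower, and the summed level was 22.24 to 22.28 in sham and 22.15 to 22.22 in MI. That sum is set by 5 markers at 19.59 or above, near the highest signal of each array (19.79 to 19.93). Actc1 and Tnnt2 among them matched that highest signal on every array. Whether differences there are compressed was not tested, so the sum does not show that cardiomyocyte RNA was unchanged. The other 5, Ckm, Ryr2, Tnni3, Myl3 and Myl2, had differences of -0.99, -0.89, -0.46, -0.41 and -0.33. In 8 of the 10 cardiomyocyte markers all MI signals were lower than all sham signals, where the background was 26.8% of protein-coding genes. The part of these cells in the carrier differences was not tested, and in whole tissue fewer cardiomyocytes and less RNA per cardiomyocyte cannot be told apart. Of 8 adipocyte markers, 5 lay within the background range on every array, Adipoq and Plin1 among them, and none of the 3 tested was called. Fabp4, which endothelial cells also express, read 13.39 to 14.63 and was highest in MI 3, Cidea read 9.02 to 9.64, and Retn reached 6.85 in MI 2. The summed adipocyte level was 13.71 to 13.92 in sham and 13.48, 13.85 and 14.66 in MI 1 to 3. That sum is set by Fabp4 and does not speak for the other markers. Fabp4 had a difference of 0.24, Retn one of 0.66 and Cidea one of -0.42. The part of adipocytes was not tested either.

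Near relatives were compared by the difference between their signals within each array, which sets change against change. The 3 arrays a group allow no exact permutation p below 0.1, so no pair could pass a threshold of 0.05, and p-values were adjusted over the 5 pairs that could be formed. Mtch1 and Mtch2 are both carrier homologues of the outer membrane, and neither was called. Mtch1 minus Mtch2 was -2.07, -2.17 and -2.48 in sham and -0.63, -1.23 and -1.08 in MI, a shift of 1.26 with no overlap (exact permutation p = 0.1, two-sided, adjusted 0.25). Mtch2 itself read 11.39, 11.82 and 12.17 in sham and 11.03, 11.56 and 10.71 in MI, overlapping, with a difference of -0.70 (adjusted p = 0.195 from limma). Leaving out any 1 array kept the shift of the pair between 1.09 and 1.39. Slc25a46, the third outer membrane member, acts in the shaping of mitochondria and read 12.59, 12.53 and 12.65 in sham and 11.97, 11.93 and 12.50 in MI, a difference of -0.45 that was not called (adjusted p = 0.169 from limma). Without MI 3 it was -0.64 and was called (adjusted p = 0.0130 from limma).

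For the ADP/ATP carriers, Slc25a4 minus Slc25a5 shifted by 0.24 with overlapping groups (exact permutation p = 0.3, two-sided, adjusted 0.5). The aspartate-glutamate carriers Slc25a12 and Slc25a13 shifted by -0.13 against each other (exact permutation p = 0.8, two-sided, adjusted 0.8), a shift that ran from -0.38 to 0.26 as single arrays were left out. The mitoferrins Slc25a28 and Slc25a37 shifted by -0.08 (exact permutation p = 0.7, two-sided, adjusted 0.8). Slc25a18 minus Slc25a22 shifted by 0.53 without overlap (exact permutation p = 0.1, two-sided, adjusted 0.25), but Slc25a18 lay within the background range throughout. A p above the threshold does not show that relatives changed alike.

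Genes around the carriers were counted in the same fit. Of 12 genes tested for the import of carrier proteins, from the outer membrane translocase to the TIM22 complex that inserts carriers into the inner membrane, 2 were lower: Tomm40, the outer membrane pore (-0.68), and Timm22, the core of the inserting complex (-0.48). The median of the 12 was -0.24, close to that of the carriers. None of the porins Vdac1, Vdac2 and Vdac3, through which metabolites cross the outer membrane, was called, with differences of -0.55, -0.47 and -0.44. Of 8 tested genes for nuclear receptors and coactivators of fatty acid metabolism, 6 were lower and none higher, where 6.32% of protein-coding genes tested were lower. The list named 10, but Ppard and Esrra had no probe set under a single symbol. The coactivator Ppargc1a (PGC-1alpha) had a difference of -1.44 (adjusted p = 0.0196 from limma) and the fatty acid receptor Ppara one of -1.30 (adjusted p = 0.0314 from limma). Rxrg and Esrrg had differences of -1.27 and -0.68. Without sham 1 the count was 1 for these regulators and 0 for the import genes, with 327 of all 32979 probe sets called. With the methods' t-test it was 0 for both, with 272 of all probe sets called.

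Other mitochondrial gene lists stood as follows in the same fit, with no test of one list against another. Among 13 enzymes of fatty acid oxidation tested, 9 were lower and the median difference was -0.85. Among 44 complex I subunits and assembly factors, 6 were lower with a median of -0.53, and among 74 mitochondrial ribosomal proteins, 15 were lower with a median of -0.48. No gene in these lists was higher. The median of the carriers was -0.25, or -0.39 with the filter at the 75th percentile, which leaves 33 of them, and their differences ran from -1.88 to 0.73. Called shares were 69.2%, 13.6% and 20.3% in these lists and 23.8% in the carriers, against 6.32% of protein-coding genes. The order of complex I, the ribosome and the carriers depended on the setting. Quantile normalization gave 11 of 44, 20 of 74 and 10 of 42, and array weights gave 39, 58 and 20. Over all probe sets tested, these settings called 1513 and 5595 lower. All MI signals were lower than all sham signals in 25 of 44, 45 of 74 and 19 of 42. The background was 26.8% of protein-coding genes and 16.8% of all probe sets. The calls in these lists also changed as single arrays were left out, as did those over all probe sets. Without sham 1, limma called 0 genes of fatty acid oxidation, 1 of complex I and 4 of the ribosome, with 172 of all 32979 probe sets lower. Without MI 3 it called 13, 28 and 38, with 2430 of all probe sets lower. Without sham 2, sham 3, MI 1 or MI 2 it called none in these lists or in those of the carnitine shuttle, malate-aspartate enzymes, import and regulators, with 11 to 12 of the 13 fatty acid oxidation genes at an unadjusted p under 0.05.

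**Figure D4:**
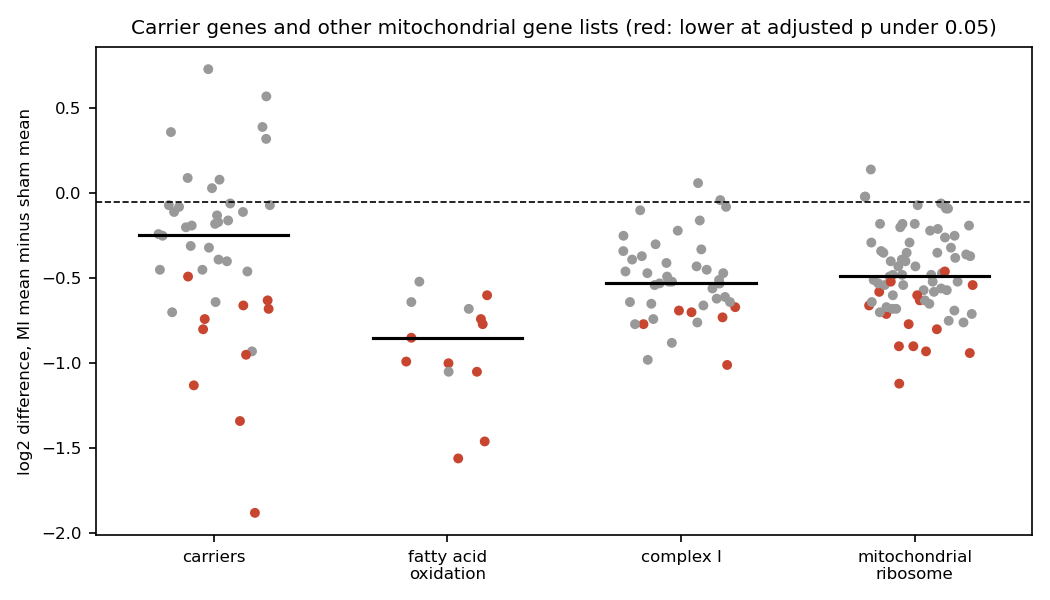
Log2 difference between MI and sham (y axis) for each tested gene of the carriers (42), fatty acid oxidation (13), complex I (44) and the mitochondrial ribosome (74). Red points were lower at an adjusted p under 0.05, solid lines are list medians (-0.25, -0.85, -0.53 and -0.48) and the dashed line is the median of all protein-coding genes (-0.05); points are spread sideways for visibility only.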

How the data were processed

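Total RNA of 3 MI and 3 sham samples was measured on Affymetrix mouse transcriptome arrays 1.0 (1 colour). The authors deposited log2 signals, made with RMA and SKETCH quantile normalization in Affymetrix Expression Console, without the filter on dim genes that their methods name. The table holds 0 columns of other samples. After 6732 control probe sets were left out, single symbols came from the platform annotation, updated by gene ID through RefSeq (GRCm38.p6); 30638 of 65956 probe sets had 1 symbol, 2176 several and 33142 none. The build of the array annotation was not found, so no probe set coordinates are given. The filter kept probe sets with a mean at or above the 50th percentile (log2 signal 4.36). MI and sham were compared with limma 3.58.1 (lmFit, eBayes, two-sided, no covariate) in R 4.3.3, with Benjamini-Hochberg adjustment over 32979 probe sets and a threshold of 0.05; the fit was tested on simulated data. Standard errors and 95% intervals are limma's.

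Every member is accounted for. Members called, members whose groups do not overlap with a log2 difference of 0.5 or more in size, and members of pairs have values for every array, with up to 4 genes named from each other list. Array values of Slc25a35, Slc25a46, Mpc1 and the genes in the closing section are given beyond that rule, chosen after they were seen. The members, gene lists and pairs were chosen with earlier results of these data known. The pairs with Ucp2 and Mpc2 could not be formed. Settings varied in turn were the filter (none, or the 75th percentile, 6.30), the methods' t-test, trend and robust options, array weights, centring, quantile normalization, a replicate block, arrays left out singly or as sham 1 with MI 3, and the mean over a symbol's probe sets. The number of arrays limits the precision. Figures were made with matplotlib 3.10.9.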

Additional observations from a re-analysis of the deposited data

How the results depend on the processing

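The count of 10 genes called lower moved with the setting. It was 6 with no filter (23 of 51 members at an unadjusted p under 0.05), 0 with the methods' t-test (14 at an unadjusted p), and 20 lower and 5 higher with array weights. Calls over all probe sets moved as well. They were 833 lower and 748 higher of 65956 with no filter, and 158 and 114 of 32979 with the t-test. With array weights they were 5595 lower and 5165 higher of 32979. With single arrays left out the count of member genes ran from 0 to 13 lower and from 0 to 5 higher. Without both sham 1 and MI 3 that count was 13 lower and 3 higher. It was 9 with trend and robust options and 10 under the other alternatives; after quantile normalization Slc25a11 left the calls and Slc25a46 entered them. No pairing by replicate number was seen, though 3 arrays a group cannot exclude it. Deviations of same-numbered arrays correlated at -0.29, 0.35 and -0.37. With the replicate number as a block limma called 0 members (17 at an unadjusted p under 0.05), and 0 of all probe sets. A block leaves less information for the error, so those counts do not decide whether arrays were paired. Over all probe sets, the split of 1200 lower and 980 higher became 1570 and 835 with centring and 1513 and 750 with quantile normalization.

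Direction changed for 3 genes that were not called, all within 0.10 of 0 under the changed setting. Slc25a30 was -0.08 with array weights, -0.01 with centring, -0.06 without both sham 1 and MI 3, and -0.07 to 0.09 with single arrays left out. Slc25a36 was -0.02 with array weights. Mpc1 ran from -0.49 to 0.07 with single arrays left out. The shift of Slc25a12 against Slc25a13 ran from -0.38 to 0.26 and that of Slc25a28 against Slc25a37 from -0.20 to 0.01 with single arrays left out, and these were 0.02 and 0.06 without both sham 1 and MI 3. The cause of these changes was not tested. Signals were within the background range on every array for 13 of the 51 genes, 4 of them tested. Other genes were within it on some arrays, among them Slc25a22, Slc25a1, Slc25a25 and Ucp3.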

Other observations

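The 9 genes below the filter had signals within the background range on every array, with means of 3.30 to 4.14. They include Ucp1, the testis ADP/ATP carrier Slc25a31, Slc25a2, Slc25a18, Slc25a21, Slc25a41, Slc25a43, Slc25a48 and Slc25a54. Slc25a31 read 4.12, 4.15 and 4.14 in sham and 3.98, 3.82 and 3.72 in MI, and Slc25a43 read 3.85, 3.82 and 4.01 in sham and 4.15, 4.22 and 4.04 in MI. Neither overlapped between the groups, both were chosen after their values were seen, and a low signal does not show that a gene is not expressed.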
